A study of Homo sapiens with 8 samples.

Results

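Kinesin genes were followed across 4 conditions of IMR90, a line of human fetal lung fibroblasts, by factory RNA-Seq, a method meant to capture nascent RNA still attached to transcription factories. The labels of these libraries describe total RNA with poly(A) selection and the deposited counts are exonic, so nascent and mature RNA cannot be told apart in the values. The genes were taken by name, as every gene whose symbol is KIF followed by a number and, in some, a letter. This gave 39 of the 28265 genes in the count tables, which were set by known role into 13 mitotic kinesins, 15 transport kinesins, 6 ciliary kinesins and 5 others. The control libraries came from low-passage wild-type IMR90, titled young, for which the labels name no vehicle. The treated cells were low-passage IMR90 after 3 or 6 days with inflachromene (ICM), a small molecule that binds HMGB1 and HMGB2, and low-passage IMR90 under a treatment labelled MetaICM, a term that neither the labels nor the study's methods explain and whose duration they do not state. Each condition had 2 libraries, and nothing in the labels says that they came from separate cultures, so p-values measure the spread between libraries, which may be technical. All the cells belong to 1 line, and the same 2 control libraries enter every comparison with control.

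Kinesins are motor proteins that walk along or act on microtubules using ATP. Transport kinesins carry vesicles, endosomes, mitochondria and other cargo through interphase and resting cells. Mitotic kinesins build the spindle, move and align chromosomes, correct wrong attachments and finish cytokinesis, and their genes are transcribed mainly in late S phase, G2 and mitosis. A further group works in cilia, hair-like projections built on a centriole. Fibroblasts that divide therefore use both mitotic and transport kinesins, while non-dividing fibroblasts keep using the transport set.

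The 8 libraries held 12095123 to 23166405 counted read pairs. Replicates differed by more than sampling noise, with a chi-square per degree of freedom of 24.8 in control, 11.6 after 3 days, 5.81 after 6 days and 7.23 with MetaICM, so no library was a copy of another. Fibroblast identity was checked on 11 marker genes, of which 10 had at least 100 counts in every library, while S100A4 had 4 to 19. The summed fibroblast markers were at 24354 to 25554 CPM (counts scaled to library size, with TMM factors) in control, 14087 to 16130 after 3 days, 12074 to 12429 after 6 days and 22578 to 23573 with MetaICM. Of the markers of other cell types, CD3E of T cells was at 0 everywhere and CDH5 (endothelium), STMN2 (neurons) and SFTPC (alveolar epithelium) reached at most 2 counts. Other genes of those lists were well detected, with 1846 to 5029 counts for TEK (endothelium), 1410 to 4263 for TUBB3 and 124 to 1807 for MAP2 (neurons), and 445 to 1427 for KRT18 (epithelium). The 5 endothelial markers summed to 128.6 to 235 CPM and the 6 neuronal markers to 142 to 227 CPM over the 8 libraries, and the 6 blood cell markers to at most 3.18 CPM. A list of 7 epithelial markers summed to 68.3 to 104 CPM in control, 37.0 to 37.7 after 3 days, 35.7 to 37.5 after 6 days and 67.5 to 70.7 with MetaICM. It thus moved with the conditions at a low level, and its part in the kinesin values was not tested. In such bulk libraries, fewer cells of a kind, for example in mitosis, and less RNA per cell cannot be told apart.

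Levels below are CPM per kilobase of exon, which lets genes of different length be compared. In control IMR90 the most abundant kinesin RNA was that of KIF5B (chr10:32297944-32345353, minus strand, hg19), the widely expressed heavy chain of kinesin-1, at 76.3 ± 4.79 (SD, n = 2). The next 8 places in the order were all mitotic. KIF20A (chr5:137514801-137523409, plus strand), which brings the chromosomal passenger complex to the midzone between separating chromosomes, was at 42.9 ± 3.09. KIF23 (chr15:69706688-69740766, plus strand), the motor of the centralspindlin complex in cytokinesis, was at 35.4 ± 1.62. KIF11 (chr10:94352887-94415152, plus strand), or Eg5, which pushes spindle poles apart, was at 29.0 ± 0.736. These 4 did not overlap in their control libraries, whereas KIF20B, KIF2C, KIF18A, KIF22 and KIF4A, at means of 25.0, 24.2, 22.1, 20.9 and 18.5, each overlapped the next in the order. The transport kinesins KIF13A at 12.7 ± 1.25 and KIF1B at 12.1 ± 0.535 overlapped mitotic KIF18B at 11.6 ± 1.01. KIF14 at 10.9 ± 0.464, KIF13B at 10.7 ± 0.239 and KIF15 at 9.07 ± 0.240 followed, and no other member exceeded 8.11, the control mean of KIF1C.

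**Figure D1:**
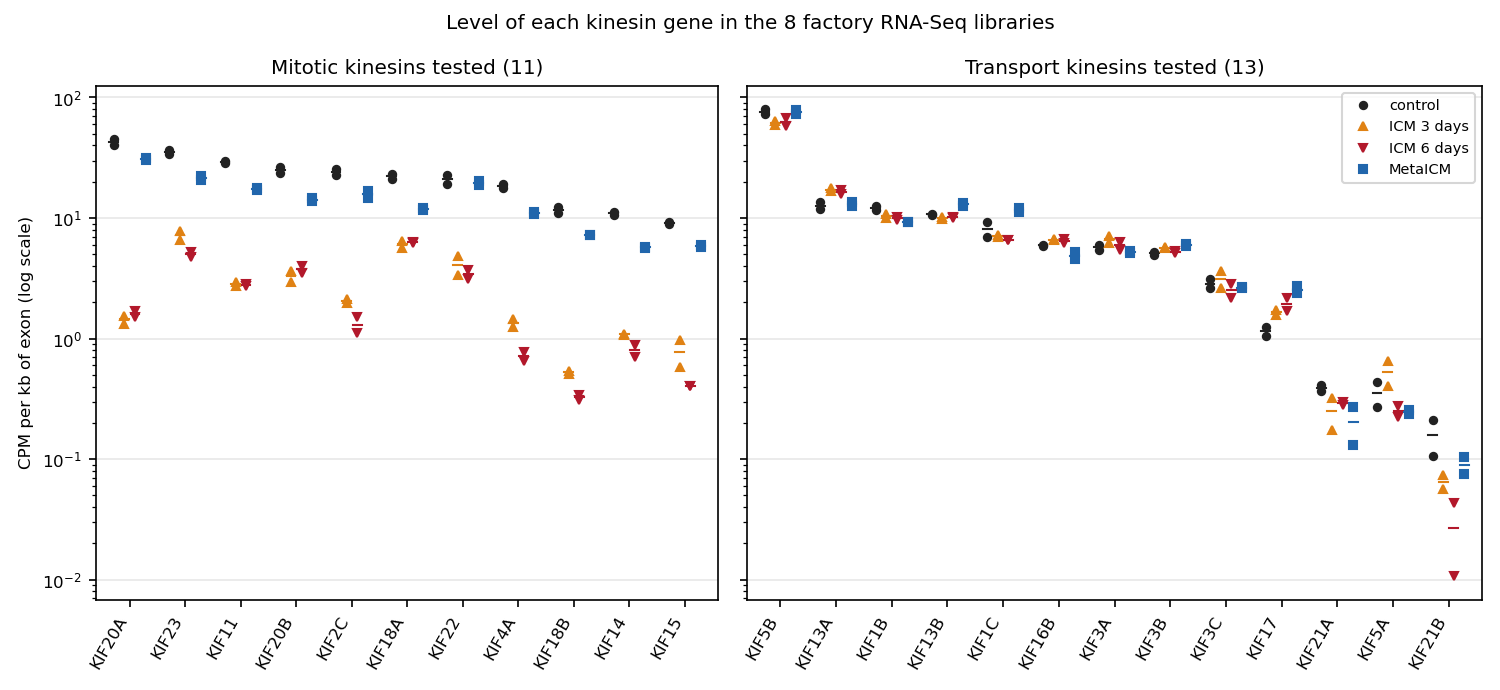
Level of the tested mitotic (left) and transport (right) kinesin genes, in CPM per kilobase of exon on a log axis, with 1 symbol per library and a dash at each condition's mean. The orange and red triangles of ICM lie far below control for all 11 mitotic genes, with KIF20A falling from 42.9 to 1.44 at 3 days, while KIF5B stays between 57.6 and 79.7 in the 8 libraries.

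The promoters of these members were read from RefSeq (GRCh38.p14) as the 250 bases before and 30 bases after the annotated start. They are shown because the mitotic genes moved together in the data, and cell cycle promoters are known for the CHR, here searched as TTTGAA, and for CCAAT boxes that bind NF-Y. Capitals mark either word on either strand, so that a word on the opposite strand reads TTCAAA or ATTGG. The mitotic examples are the 3 with the highest control level, KIF20A (chr5:138178862-138179141, plus strand), KIF23 (chr15:69414099-69414378, plus strand) and KIF11 (chr10:92592880-92593159, plus strand).
KIF20A: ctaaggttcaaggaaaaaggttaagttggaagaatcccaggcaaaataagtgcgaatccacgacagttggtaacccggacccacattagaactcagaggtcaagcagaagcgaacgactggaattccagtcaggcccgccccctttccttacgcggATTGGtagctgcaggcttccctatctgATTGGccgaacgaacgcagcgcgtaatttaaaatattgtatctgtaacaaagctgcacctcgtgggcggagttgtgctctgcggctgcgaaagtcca
KIF23: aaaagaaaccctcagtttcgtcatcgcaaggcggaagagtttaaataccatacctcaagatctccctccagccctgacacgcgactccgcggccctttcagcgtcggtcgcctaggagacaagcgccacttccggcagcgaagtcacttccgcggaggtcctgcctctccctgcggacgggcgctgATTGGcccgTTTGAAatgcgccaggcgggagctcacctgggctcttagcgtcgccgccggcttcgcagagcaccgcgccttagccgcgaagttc
KIF11: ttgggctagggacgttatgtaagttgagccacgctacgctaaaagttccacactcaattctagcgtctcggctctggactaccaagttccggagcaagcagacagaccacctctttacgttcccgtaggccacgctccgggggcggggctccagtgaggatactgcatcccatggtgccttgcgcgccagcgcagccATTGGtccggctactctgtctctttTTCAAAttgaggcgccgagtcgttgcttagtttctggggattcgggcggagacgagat
The transport examples, chosen the same way, are KIF5B (chr10:32056396-32056675, minus strand), KIF13A (chr6:17987606-17987885, minus strand) and KIF1B (chr1:10210320-10210599, plus strand).
KIF5B: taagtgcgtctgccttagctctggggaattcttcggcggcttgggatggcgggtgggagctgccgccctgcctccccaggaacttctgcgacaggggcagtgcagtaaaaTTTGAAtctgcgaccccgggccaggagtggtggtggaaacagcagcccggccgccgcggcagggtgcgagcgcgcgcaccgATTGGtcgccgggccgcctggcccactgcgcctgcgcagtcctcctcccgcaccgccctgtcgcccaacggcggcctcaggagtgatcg
KIF13A: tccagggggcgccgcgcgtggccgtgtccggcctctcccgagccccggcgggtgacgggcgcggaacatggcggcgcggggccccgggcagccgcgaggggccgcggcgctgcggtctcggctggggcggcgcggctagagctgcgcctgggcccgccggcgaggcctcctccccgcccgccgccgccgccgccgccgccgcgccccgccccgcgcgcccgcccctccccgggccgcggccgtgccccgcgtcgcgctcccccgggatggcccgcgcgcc
KIF1B: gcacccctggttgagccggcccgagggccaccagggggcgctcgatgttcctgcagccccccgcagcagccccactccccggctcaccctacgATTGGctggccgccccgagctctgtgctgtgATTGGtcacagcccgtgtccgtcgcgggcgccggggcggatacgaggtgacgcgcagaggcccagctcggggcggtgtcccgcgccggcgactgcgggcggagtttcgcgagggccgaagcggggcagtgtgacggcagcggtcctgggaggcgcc
KIF23 and KIF11 each hold 1 TTTGAA a short way downstream of 1 CCAAT, KIF20A holds 2 CCAAT and no TTTGAA, KIF5B holds 1 of each farther apart, KIF1B holds 2 CCAAT and KIF13A holds neither.

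Of the 39 members, 33 had a promoter in the table, among them all 13 mitotic and 12 of the 15 transport genes. TTTGAA, on either strand, was in 9 of the 13 mitotic windows (69.2%), in 1 of the 12 transport windows (8.3%, KIF5B) and in 14.7% of all 27305 windows of that length. CCAAT was in 10 mitotic windows (76.9%), in 3 transport windows (25.0%) and in 34.7% of all. Both words together were in 8 mitotic windows (61.5%), in 1 transport window (8.3%) and in 5.6% of all. The E2F-type words TTTCCCGC, TTTCGCGC, TTTGCCGC and TTTGGCGC were found in 1 mitotic window, that of KIF15, in 0 transport windows and in 3.1% of all. No match overlapped another. The 9 mitotic TTTGAA began between 55 bases before the start and base 25 after it, and the 14 mitotic CCAAT between 202 and 21 bases before the start. The windows of KIF2B and KIF2C held none of the words, and KIF4B, an intronless near-copy of KIF4A, holds both words at the same spacing as KIF4A and is not an independent case. Median GC content was 62.9% in mitotic, 71.2% in transport and 58.2% in all windows. A match is a run of letters and was not tested as a binding site.

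**Figure D2:**
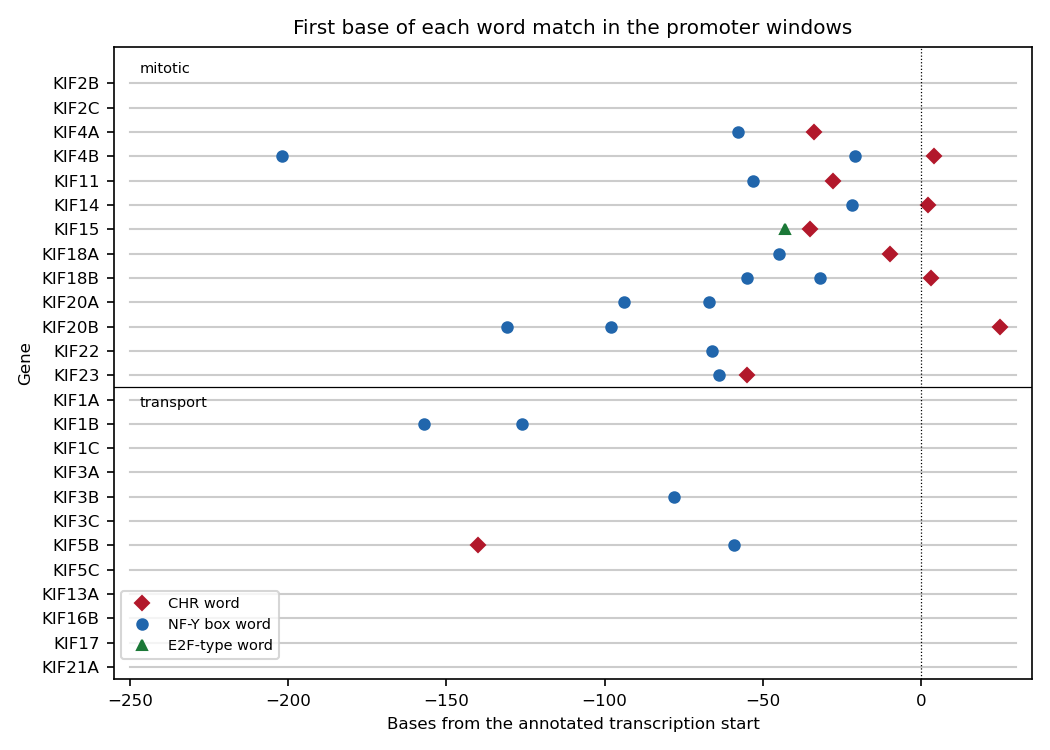
Place of each word match in the promoter windows of 13 mitotic and 12 transport kinesin genes, as bases from the annotated start (horizontal axis, 250 before to 30 after); diamonds are the CHR word, circles the NF-Y box word and the triangle the E2F-type word. The CHR word marks 9 mitotic windows but, among transport genes, only that of KIF5B.

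To ask how the kinesins responded to ICM, conditions were compared 2 at a time with edgeR's quasi-likelihood test across all genes that passed a filter on low counts. A gene was called lower or higher at a Benjamini-Hochberg adjusted p under 0.05 and an absolute log2FC over 0.6. In each comparison 30 of the 39 members were tested, among them 11 mitotic and 13 transport genes. The other 9 stayed under the filter. Of these, KIF2B, a spindle depolymerase, had 0 to 1 counts, KIF4B 1 to 7, KIF1A 0 to 5, KIF5C 0 to 8, KIF6 0 to 5, KIF12 0 to 6, KIF19 0 to 1, KIF25 0 to 8 and KIF26A 0 to 4 counts per library. KIF1A and KIF5C are mainly neuronal motors. Pairs mapping to several places were not counted, so the KIF4B counts, and to a lesser degree those of KIF4A, are uncertain.

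After 3 days of ICM all 11 tested mitotic kinesins were called lower, against 13.2% of all 15692 genes tested. Their median log2FC was −3.36, from −4.89 to −1.88, while the median of all genes was 0.01. The count rests on role lists chosen with earlier results of these data known. KIF2A, which also acts at spindle poles, was kept outside the mitotic list and was not called, at a log2FC of −0.43. KIF20A showed the largest fall. Its level was 45.1 and 40.7 in the control libraries and 1.55 and 1.33 after 3 days, so the conditions were far apart and replicates close together. This left 3.36% of the control mean, with a log2FC of −4.89 (SE 0.164, adjusted p = 6.16e-09). KIF20A shares 71 of its exon bases with the opposite-strand gene CDC23, and KIF23 shares 128 with the opposite-strand gene LOC145694. KIF18B, which shortens astral microtubules together with KIF2C, went from 12.4 and 10.9 to 0.513 and 0.535, a log2FC of −4.48 (SE 0.185, adjusted p = 1.45e-08). KIF4A, a chromokinesin that also sets the length of midzone microtubules, went from 19.3 and 17.6 to 1.25 and 1.45, a log2FC of −3.79 (SE 0.164, adjusted p = 1.72e-08). In each of these genes the higher ICM library was far below the lower control library.

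The spindle motors proper fell in the same range. KIF11 was at 28.5 and 29.5 in control and at 2.94 and 2.73 after 3 days, which is 9.78% of the control mean and a log2FC of −3.36 (SE 0.141, adjusted p = 1.62e-08). KIF15, which can back up KIF11 in keeping spindle poles apart, went from 8.90 and 9.24 to 0.576 and 0.977, a log2FC of −3.59 (SE 0.222, adjusted p = 2.1e-07). Its 3-day libraries differed more from each other than its control libraries did. KIF2C, or MCAK, which removes wrong attachments at centromeres, was left at 8.48% of its control mean. KIF14, which works with citron kinase in cytokinesis, was left at 9.95% and KIF20B, another cytokinesis motor, at 13.3%. The smallest falls were those of KIF18A, KIF23 and KIF22. KIF18A, which damps chromosome movements at kinetochores, kept 27.4% of its control mean, KIF23 kept 20.4% and KIF22, a chromokinesin that pushes chromosome arms from the poles, kept 19.6%. In all 11 genes the 3-day libraries lay below both control libraries. The 2 conditions also did not overlap, in either direction, for 14 of the 19 other tested members. A lack of overlap alone therefore does not set the mitotic genes apart, and its share over all genes was not counted.

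After 6 days of ICM the same 11 mitotic kinesins were called lower, against 17.2% of all 15950 genes tested. The median log2FC was −3.78, from −5.17 to −1.83, beside a median of 0.00 over all genes. KIF18B was at 0.309 and 0.342 after 6 days, 2.80% of its control mean, which gave the largest log2FC, −5.17 (SE 0.182, adjusted p = 3.73e-08). KIF20A was at 1.69 and 1.51, a log2FC of −4.75 (SE 0.145, adjusted p = 2.35e-08). KIF4A was at 0.650 and 0.775, a log2FC of −4.70 (SE 0.160, adjusted p = 3.31e-08). KIF15 was at 0.407 and 0.402, a log2FC of −4.49 (SE 0.172, adjusted p = 5.24e-08). The 6-day libraries of these 4 genes lay close together and far below control. KIF11 was at 2.83 and 2.74, practically its 3-day level, with a log2FC of −3.39 against control (SE 0.124, adjusted p = 4.32e-08). KIF18A again kept the largest share of its control mean, 28.4%, and KIF22 kept 16.4%, KIF20B 15.0% and KIF23 14.2%.

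**Figure D3:**
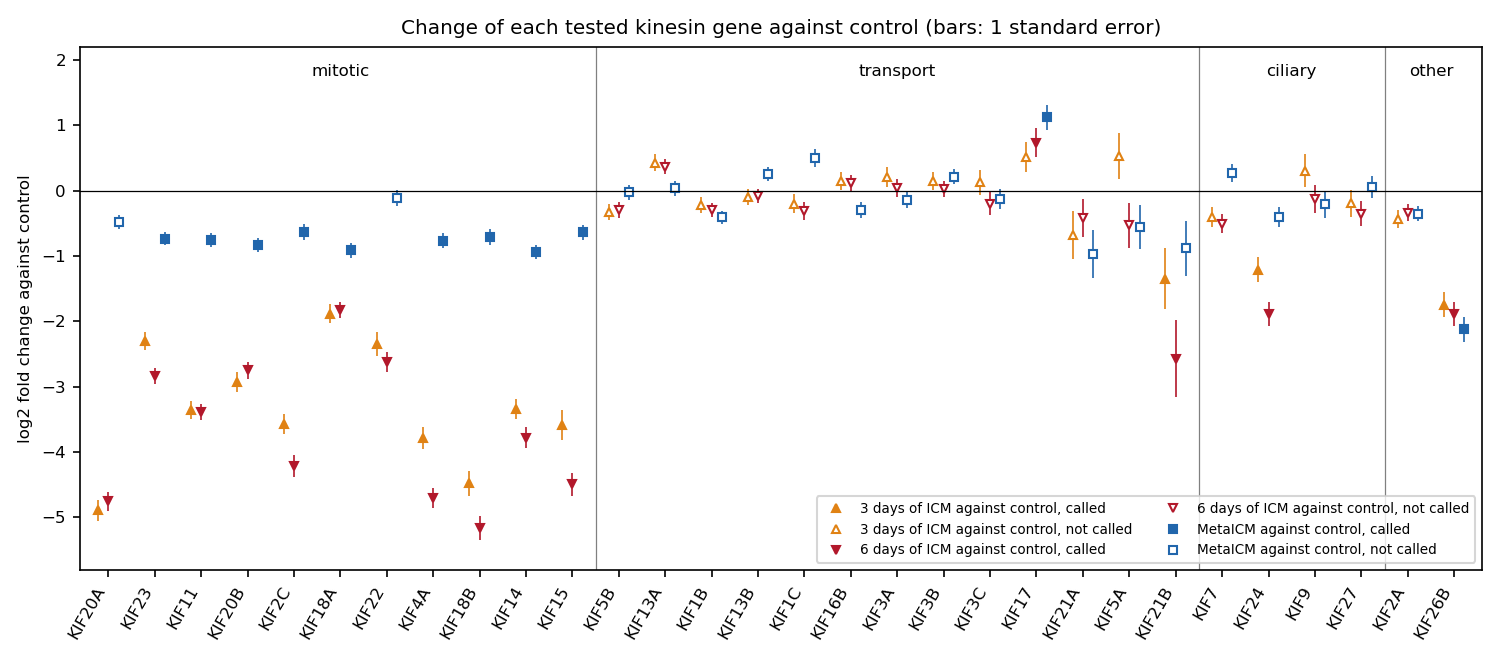
log2FC against control of the 30 tested kinesin genes, grouped by role and ordered by control level, after 3 days of ICM, 6 days of ICM and MetaICM; bars are 1 standard error, filled symbols are called genes and open symbols are not. The mitotic genes lie between −5.17 and −1.83 with ICM and between −0.94 and −0.11 with MetaICM, while most transport genes lie near 0.

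The 6-day and 3-day libraries were compared directly to see which kinesins went on falling. Of the 11 mitotic genes 3 were called lower at 6 days, against 4.54% of all 15845 genes tested, and 0 were called higher by edgeR, against 3.53%, with 0 also at an unadjusted p under 0.05 and with DESeq2. The median log2FC of the mitotic genes was −0.45, from −0.92 to 0.18. KIF4A went from 1.25 and 1.45 to 0.650 and 0.775, a log2FC of −0.92 (SE 0.223, adjusted p = 0.00652). KIF15 went from 0.576 and 0.977 to 0.407 and 0.402, a log2FC of −0.92 (SE 0.30, adjusted p = 0.0381). KIF2C went from 1.97 and 2.12 to 1.12 and 1.5, a log2FC of −0.65 (SE 0.211, adjusted p = 0.0373). In all 3 genes the conditions did not overlap. KIF23, at 7.87 and 6.58 after 3 days and 4.74 and 5.27 after 6 days, did not overlap either. Its log2FC of −0.54 (SE 0.124, adjusted p = 0.00438) fell short of the fold cutoff alone. The log2FC of KIF11 between the time points was −0.03 (SE 0.137, adjusted p = 0.897). These calls depend on single libraries, and DESeq2 called 1 of the 3, KIF4A. Without the 6-day replicate 1 the count went to 0, with log2FC of −0.79 for KIF4A (adjusted p = 0.0806), −0.92 for KIF15 (adjusted p = 0.110) and −0.44 for KIF2C (adjusted p = 0.376). Without the 3-day replicate 2, KIF15 (log2FC −0.51) and KIF2C (log2FC −0.59) lost their calls, and without the 6-day replicate 2, KIF15 lost its own (log2FC −0.92, adjusted p = 0.107).

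In the MetaICM libraries the mitotic kinesins were modestly below control. Of the 11 genes 9 were called lower, against 8.99% of all 15904 genes tested, and the median log2FC was −0.73, from −0.94 to −0.11. KIF14 was at 10.6 and 11.2 in control and at 5.69 and 5.80 with MetaICM, a log2FC of −0.94 (SE 0.112, adjusted p = 0.000502). KIF18A was at 21.1 and 23.2 against 11.6 and 12.2, a log2FC of −0.91 (SE 0.116, adjusted p = 0.000708). KIF20B was at 23.7 and 26.3 against 13.8 and 14.5, a log2FC of −0.83 (SE 0.110, adjusted p = 0.000876). These genes kept between 52.7% and 56.8% of their control means, with no overlap between the conditions. KIF4A, at 11.1 and 10.9, had a log2FC of −0.76 (SE 0.111, adjusted p = 0.00145). KIF11, at 17.1 and 17.7, had one of −0.75 (SE 0.104, adjusted p = 0.00117). The genes not called were KIF20A, at 30.4 and 31.6 with a log2FC of −0.49 (adjusted p = 0.00904), which was short of the fold cutoff, and KIF22, at 18.9 and 20.3 with one of −0.11 (adjusted p = 0.538). The 4 genes with the largest falls after 3 days were thus not the ones with the largest falls here, apart from KIF4A. Leaving out single libraries lowered the count to between 6 and 8. KIF2C lost its call without control replicate 1 or MetaICM replicate 1, KIF15 without control replicate 2 or either MetaICM library, and KIF18B without either MetaICM library.

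Set against the ICM libraries, MetaICM was higher for every tested mitotic kinesin. All 11 were called higher than after 6 days of ICM, against 15.7% of all 16036 genes tested, with a median log2FC of 2.84, from 0.92 to 4.46. All 11 were also called higher than after 3 days, against 13.1% of all 16209 genes tested, with a median of 2.61, from 0.98 to 4.41. KIF11 stood at a log2FC of 2.64 (SE 0.0874, adjusted p = 5.03e-16) over 6 days and 2.61 (SE 0.0995, adjusted p = 8.39e-11) over 3 days. KIF18A was the gene with the smallest difference in each, at 5.66 to 6.46 in the 4 ICM libraries and 11.6 and 12.2 with MetaICM.

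The transport kinesins had median log2FC between −0.20 and 0.13 against control, and their called counts were not far from the shares over all genes. Single genes did move, mostly under the cutoffs. The libraries did not overlap control, in either direction, for 10 of the 13 tested genes after 3 days, 9 after 6 days and 10 with MetaICM. After 3 days of ICM 1 of the 13 tested genes was called lower, against 13.2% of all genes, and 0 higher by edgeR, against 8.85%, with a median log2FC of 0.13. At an unadjusted p under 0.05 there were 2 higher, and DESeq2 called 0. After 6 days 1 was lower, against 17.2%, and 1 higher, against 13.3%, with a median of −0.20. With MetaICM 0 were lower by edgeR (3 at an unadjusted p under 0.05, 0 with DESeq2) and 1 was higher than control, against 7.41% of all genes called higher, with a median of −0.12. The medians of all genes in these 3 comparisons lay between 0.00 and 0.01. KIF5B was at 79.7 and 73.0 in control, 64.0 and 59.0 after 3 days, 68.0 and 57.6 after 6 days, and 78.2 and 73.6 with MetaICM. The ICM libraries were all below control and MetaICM overlapped it. Its log2FC was −0.32 (SE 0.122, adjusted p = 0.0686) after 3 days, −0.30 (SE 0.118, adjusted p = 0.0675) after 6 days and −0.02 (SE 0.113, adjusted p = 0.887) with MetaICM, the last changing sign under other scalings or with libraries left out. Against 6 and 3 days of ICM, MetaICM was higher by log2FC of 0.27 (adjusted p = 0.00837) and 0.30 (adjusted p = 0.00959), under the fold cutoff. KIF1B, which carries mitochondria and vesicle precursors, KIF3A, KIF3B and KIF3C of kinesin-2, KIF13A and KIF16B, which move endosomes, KIF13B and KIF21A were called in no comparison. KIF21A lay below control without overlap with MetaICM, at −0.97 (adjusted p = 0.0788). KIF21A passed the cutoffs there with all genes with a count, with the replicate number as a block and without control replicate 1. For MetaICM against 6 days it passed them only without MetaICM replicate 1. It had 39 and 32 counts in control and 35 and 19 with MetaICM, so its values depend on single libraries. KIF1B lay below control without overlap, at −0.30 after 6 days (adjusted p = 0.0492) and −0.41 with MetaICM (adjusted p = 0.0178). Both values were under the fold cutoff. KIF13A stood at 13.6 and 11.8 in control and at 15.7 to 17.7 in the 4 ICM libraries, with no overlap and a log2FC of 0.43 after 3 days (adjusted p = 0.0225) and 0.37 after 6 days (adjusted p = 0.0267), under the fold cutoff.

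A few transport genes passed the cutoffs. KIF17, a homodimeric kinesin-2, was at 1.25 and 1.04 in control, 1.73 and 1.58 after 3 days, 1.70 and 2.18 after 6 days and 2.37 and 2.73 with MetaICM. No treated library overlapped control. Its log2FC against control was 0.51 (SE 0.234, adjusted p = 0.122) after 3 days, 0.74 (SE 0.221, adjusted p = 0.0213) after 6 days and 1.12 (SE 0.194, adjusted p = 0.00326) with MetaICM. The 6-day call was lost without the 6-day replicate 2 (log2FC 0.55, adjusted p = 0.218) and with DESeq2 (adjusted p = 0.052). MetaICM was above 3 days by 0.62 (SE 0.163, adjusted p = 0.00712), a call lost without the 3-day replicate 2 (log2FC 0.57) or MetaICM replicate 2 (log2FC 0.51), with upper-quartile factors (log2FC 0.595) and with library totals (log2FC 0.56). KIF1C, which carries vesicles and integrins, was at 9.20 and 7.02 in control, 7.27 and 6.95 after 3 days, 6.58 and 6.57 after 6 days and 11.1 and 12.1 with MetaICM. The MetaICM libraries were the highest, and the wide control pair overlapped the 3-day libraries. MetaICM was above 6 days by a log2FC of 0.81 (SE 0.0762, adjusted p = 1.14e-08) and above 3 days by 0.70 (SE 0.0873, adjusted p = 1.68e-05), while its log2FC against control of 0.50 (adjusted p = 0.0219) was not called and passed the cutoff only without control replicate 1. KIF1C shares 84 exon bases with an antisense gene, and counts were not split by strand.

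The low transport genes rest on few counts. KIF21B, a kinesin-4 known from neurons, had 35 and 13 counts in control, 12 and 11 after 3 days, 8 and 2 after 6 days and 21 and 17 with MetaICM. Its log2FC was −1.35 (SE 0.464, adjusted p = 0.0465) after 3 days, −2.58 (SE 0.590, adjusted p = 0.00567) after 6 days and 1.70 (SE 0.533, adjusted p = 0.0107) for MetaICM over 6 days. The 3-day call was lost without control replicate 1 (log2FC −0.76) or either 3-day library (log2FC −1.13 without replicate 1 and −1.52 without replicate 2), with DESeq2 (adjusted p = 0.184) and with library totals (adjusted p = 0.0552). The 6-day log2FC ranged from −3.83 to −1.89 over the alternatives. The MetaICM call over 6 days was lost without the 6-day replicate 2 (log2FC 1.03) or MetaICM replicate 1 (log2FC 1.46), and with DESeq2 (adjusted p = 0.0979). KIF5A, the neuronal kinesin-1, had 42 and 19 counts in control, 50 and 57 after 3 days, 24 and 30 after 6 days and 30 and 31 with MetaICM. Per kilobase of exon its level was 0.433 and 0.269 in control, 0.402 and 0.656 after 3 days, 0.224 and 0.276 after 6 days and 0.258 and 0.235 with MetaICM. The control libraries overlapped those of 3 and of 6 days, and the MetaICM libraries lay just below control. It was lower at 6 than at 3 days by a log2FC of −1.06 (SE 0.322, adjusted p = 0.0266) and lower with MetaICM than at 3 days by −1.08 (SE 0.312, adjusted p = 0.0126). Without the 3-day replicate 2 these became −0.68 and −0.70 and were not called, and without the 6-day replicate 1 the former was also lost (log2FC −0.90, adjusted p = 0.155). Across the transport genes, MetaICM had 0 lower by edgeR (3 at an unadjusted p under 0.05, 0 with DESeq2) and 2 higher than 6 days, where 12% of all genes were called lower and 15.7% higher, and 1 lower and 2 higher than 3 days, where 10.3% were called lower and 13.1% higher. Between the 6-day and 3-day libraries, 1 transport gene, KIF5A, was lower by edgeR and 0 by DESeq2, against 4.54% of all genes.

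Among the ciliary and remaining kinesins, KIF24 and KIF26B fell with ICM. KIF24, which holds back the growth of cilia in cycling cells, was at 2.52 and 2.89 in control, 1.15 and 1.20 after 3 days, 0.693 and 0.776 after 6 days and 2.18 and 1.97 with MetaICM. The conditions followed each other without overlap. Its log2FC was −1.21 (SE 0.187, adjusted p = 0.000475) after 3 days and −1.89 (SE 0.183, adjusted p = 2.17e-05) after 6 days, and MetaICM, at −0.40 against control (adjusted p = 0.0751), was not called. The drop from 3 to 6 days was −0.69 (SE 0.195, adjusted p = 0.0180), which was not called with DESeq2 (adjusted p = 0.066) or without the 6-day replicate 1 (log2FC −0.59, adjusted p = 0.173) or replicate 2 (log2FC −0.77, adjusted p = 0.0542). MetaICM was above 6 days by 1.49 (SE 0.155, adjusted p = 5.64e-08) and above 3 days by 0.81 (SE 0.151, adjusted p = 0.000619). KIF24 shares 144 exon bases with UBAP1.

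KIF26B, an atypical kinesin without motor ATPase activity that acts in cell adhesion and non-canonical Wnt signalling, was at 2.00 and 2.69 in control, 0.746 and 0.655 after 3 days, 0.630 and 0.645 after 6 days and 0.464 and 0.621 with MetaICM. All treated libraries were far below control and close to each other. It was the only tested member outside the mitotic group called lower in all 3 comparisons with control, with a log2FC of −1.75 (SE 0.19, adjusted p = 2.7e-05) after 3 days, −1.89 (SE 0.180, adjusted p = 2.01e-05) after 6 days and −2.12 (SE 0.194, adjusted p = 0.000117) with MetaICM. Its MetaICM libraries differed from 6 days by −0.23 (adjusted p = 0.242) and from 3 days by −0.37 (adjusted p = 0.104), whereas the mitotic genes were all higher with MetaICM than with ICM.

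KIF7, a regulator of Hedgehog signalling at the tip of the cilium, was at 8.88 and 7.03 in control, 6.24 and 5.87 after 3 days, 5.51 and 5.83 after 6 days and 9.84 and 9.67 with MetaICM. ICM libraries were lowest and MetaICM libraries highest. MetaICM exceeded 6 days by a log2FC of 0.78 (SE 0.0855, adjusted p = 1.27e-07) and 3 days by 0.68 (SE 0.0958, adjusted p = 5.21e-05), and no comparison of KIF7 with control was called, although 6 days against control passed without control replicate 2. KIF9 and KIF27, which work in motile cilia, and KIF2A, which depolymerizes microtubules in interphase and at spindle poles, were called in no comparison. KIF2A was not counted among the mitotic genes. It lay below control without overlap, at a log2FC of −0.43 after 3 days (adjusted p = 0.0386), under the fold cutoff. It was at −0.33 after 6 days (adjusted p = 0.0555) and −0.35 with MetaICM (adjusted p = 0.0529), also without overlap. KIF2A shares 1906 of its 8205 exon bases with DIMT1, and KIF27 has pseudogene copies, so that their counts are less certain. KIF9 shares 288 exon bases with KIF9-AS1 and KIF7 shares 46 with TICRR, both on the opposite strand. KIF25 had 0 counts in the control and MetaICM libraries, 2 and 3 after 3 days and 2 and 8 after 6 days, too few for the test.

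Summed over all 39 members, the kinesin level was 424 and 406 in control, 181 and 176 after 3 days, 176 and 166 after 6 days and 325 and 329 with MetaICM. The mitotic sum went from 254 and 245 to 31.2 and 30.3, then 25.4 and 27.5, and was 157 and 166 with MetaICM. The transport sum was 146 and 137 in control, 133 and 128 after 3 days, 135 and 122 after 6 days and 147 and 142.5 with MetaICM. All ICM libraries thus lay below both control libraries, by far less than for the mitotic sum. The mitotic genes therefore made up 59.96% and 60.3% of the summed level in control, 17.3% and 17.2% after 3 days, 14.4% and 16.6% after 6 days and 48.3% and 50.3% with MetaICM. KIF5B alone went from 18.8% and 17.99% in control to 35.4% and 33.5% after 3 days and 38.6% and 34.7% after 6 days, and held 24.0% and 22.3% with MetaICM. These shares are descriptions of composition: that of KIF5B was larger with ICM, while its own level was not.

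**Figure D4:**
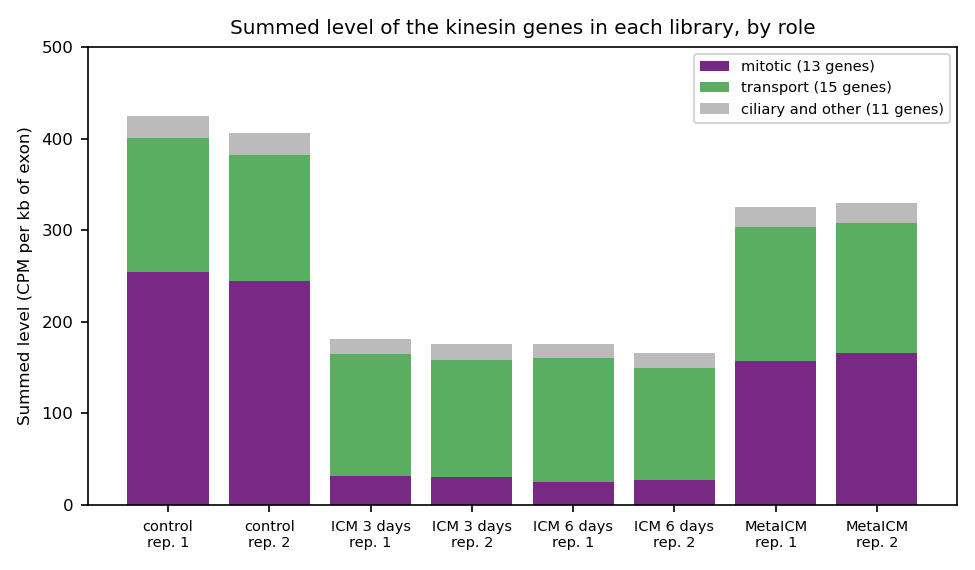
Summed level of the kinesin genes in each of the 8 libraries, in CPM per kilobase of exon, stacked by role. The mitotic segment shrinks from 254 and 245 in control to between 25.4 and 31.2 with ICM. The transport segment is at 146 and 137 in control and between 122 and 135 with ICM.

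Kinesins whose names fall outside the rule were looked at beside the members. CENPE, the kinetochore kinesin that brings chromosomes to the metaphase plate, had a log2FC of −3.98 after 3 days (SE 0.16, adjusted p = 1.42e-08), −3.89 after 6 days and −1.0 with MetaICM (adjusted p = 0.00027). KIFC1, a minus-end motor that focuses spindle poles, had −3.36 after 3 days (adjusted p = 2.33e-07), −4.51 after 6 days and −0.34 with MetaICM (adjusted p = 0.168). KIFC2 was higher after 3 days, by 1.09 (adjusted p = 0.00114), and after 6 days, by 0.73 (adjusted p = 0.00646). STARD9, a centriole-associated kinesin, was at −0.37 against control after 3 days (adjusted p = 0.0506), which was not called. It was lower after 6 days than in control, at −1.24 (adjusted p = 1.93e-05), and than after 3 days, at −0.87 (adjusted p = 5.39e-06). CENPE and KIFC1 thus fell by amounts within the range of the 11 mitotic members, at both times. The falls of STARD9 were smaller than those of any of the 11.

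Of 15 known partners of mitotic kinesins, among them the passenger complex, centralspindlin and spindle assembly factors, all 15 were called lower after 3 days, with a median log2FC of −3.38, and after 6 days, with a median of −3.57, beside 13.2% and 17.2% of all genes. CDCA8 and AURKB of the passenger complex carried by KIF20A had log2FC of −4.02 and −3.96 after 3 days, and CIT, the citron kinase bound by KIF14, had −3.84. With MetaICM 4 of the 15 were lower than control, beside 8.99% of all genes, with a median of −0.47, CIT at −0.73, TPX2 at −0.72 and ANLN at −0.66 being the lowest. All 15 were higher with MetaICM than after 6 days, with a median of 3.08, and than after 3 days, with a median of 2.91, beside 15.7% and 13.1% of all genes. Between 3 and 6 days edgeR called 1 partner lower, NUSAP1, at −0.65 (adjusted p = 0.0439), beside 4.54% of all genes. DESeq2 called 0, and 4 were lower at an unadjusted p under 0.05.

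Adaptors of the transport kinesins and their opposite motor were counted the same way. Of 18 tested cargo adaptors, such as kinesin light chains and JIP proteins, 1 was lower after 3 days, BORCS5, which links lysosomes to kinesin, at −0.69 (adjusted p = 0.0205), and 1 was higher, the light chain KLC4, at 0.82 (adjusted p = 0.00645). After 6 days BORCS5 was lower, at −0.80, and 0 were higher by edgeR (4 at an unadjusted p under 0.05, 0 with DESeq2). With MetaICM BORCS5 was lower than control, at −0.73. Over all genes, 13.2% were called lower and 8.85% higher after 3 days, and 17.2% and 13.3% after 6 days. With MetaICM 8.99% of all genes were called lower than control. MAPK8IP2 passed the filter in the MetaICM comparisons alone, where it is high, and is not counted. Of 26 tested genes of dynein and dynactin, the motor complex that carries cargo the other way, 1 was lower and 1 higher after 3 days (13.2% and 8.85% of all genes), and 1 was lower and 5 were higher after 6 days (17.2% and 13.3% of all genes). NDE1, a dynein regulator that also acts in mitosis, fell by 1.68 on the log2 scale after 3 days and by 1.53 after 6 days. It lies opposite MYH11, and pairs from the overlap cannot be given a strand. DYNLT3, a dynein light chain, was higher at 0.64 after 3 days (adjusted p = 0.0445 by edgeR, with 0 genes of the list called higher by DESeq2), 1.07 after 6 days and 1.11 with MetaICM. ACTR10, at 1.0, and DYNLL2, at 0.77, were the next highest after 6 days. With MetaICM 4 of the 26 were higher and 1, BICD1, was lower than control, at −0.81 (7.41% and 8.99% of all genes).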

How the data were processed

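Factory RNA-Seq libraries from 8 IMR90 samples were grouped by their titles into control, 3 days of ICM, 6 days of ICM and MetaICM, with 2 libraries each. The labels mention poly(A) selection and TruSeq kits. Per the file headers, the deposited values are counts of read pairs on RefSeq exons from featureCounts 1.6.3 (hg19, GRCh37), made by the authors after alignment with STAR 2.6.0c (submitters' processing notes). Pairs had both ends mapped, strand was not used, and pairs on several places or genes were left out. The values are unnormalized. Intronic counts, on which the study's nascent values rest, were not analysed here.

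Each pair of conditions (4 libraries) was fitted with edgeR 4.0.16 in R 4.3.3: TMM, filterByExpr at a count minimum of 10, the two-sided quasi-likelihood test and Benjamini-Hochberg adjustment over all genes tested. Calls needed an adjusted p under 0.05 and an absolute log2FC over 0.6. Levels are TMM-scaled CPM over 8 libraries, divided by exon length where stated. The standard error is the log2FC divided by the square root of F. The scripts were tested on simulated data.

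Members, roles and lists came from general knowledge and were chosen with earlier results of these data known. Statistics were given for KIF11, KIF5B, the 4 mitotic genes with the largest called log2FC in each comparison with control and every other member called. The remaining values are levels, or members near a cutoff, singled out after their values were seen. From each further list, at most 3 called genes were named in each direction of a comparison. Of 21 cargo adaptor names, 19 were found; the other 2 are older names of KIFBP, which was found. Alternatives were DESeq2 1.42.0, DESeq2 size factors, upper-quartile factors, library totals, at least 10 counts in every library, all genes with a count, 1 fit of all 8 libraries, the replicate number as a block, an adjusted p of 0.01 and each library left out. Counts were handled with Python 3.11.15 and pandas 2.3.3, and figures drawn with matplotlib 3.10.9. RefSeq promoters (GRCh38.p14) were searched as windows of 280 bases.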

Additional observations from a re-analysis of the deposited data

Results flagged for a closer look

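The change against control differed between 3 and 6 days of ICM for 5 kinesin genes, by the direct test of the 6-day against the 3-day libraries (edgeR quasi-likelihood, Benjamini-Hochberg adjusted), in which the shared control cancels. The difference was −0.92 for KIF4A (SE 0.223, adjusted p = 0.00652), −0.69 for KIF24 (SE 0.195, adjusted p = 0.0180), −1.06 for KIF5A (SE 0.322, adjusted p = 0.0266), −0.65 for KIF2C (SE 0.211, adjusted p = 0.0373) and −0.92 for KIF15 (SE 0.30, adjusted p = 0.0381). For KIF4A, KIF24, KIF2C and KIF15 the change was below 0 at both times and larger at 6 days, with lower values in 2 of 2 libraries at 6 days. For KIF5A the log2FC against control was 0.53 at 3 days and −0.53 at 6 days, neither of them called, on 19 to 57 counts per library. KIF4A was the 1 gene of the 5 that DESeq2 and an adjusted p of 0.01 also called. Without the 6-day replicate 1, KIF2C, KIF4A, KIF5A, KIF15 and KIF24 were at −0.44, −0.79, −0.90, −0.92 and −0.59, and none of the 5 was called. Conditions with 2 libraries cannot be tested for an outlying library.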

How the results depend on the processing

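The counts of mitotic kinesins against control after 3 and 6 days, and of MetaICM against 6 and 3 days, were 11 under every alternative. With MetaICM against control the count was 9 in the other alternatives and 6 to 8 with a library left out. Between 6 and 3 days, 3 mitotic calls became 1 with DESeq2, 1 at an adjusted p of 0.01 and 0 to 3 with a library left out. For the other kinesins, the 2 lower between 6 and 3 days became 0 with DESeq2, 0 at 0.01 and 0 to 3 with a library left out. The 1 higher after 6 days against control became 0 with DESeq2, 0 at 0.01 and 0 to 1 with a library left out. For MetaICM against control, the 1 lower became 2 with all genes with a count, 2 with the replicate block and 1 to 2 with a library left out, and the 1 higher became 1 to 2 with a library left out. For MetaICM against 6 days, the 0 lower became 1 with all genes with a count (KIF25) and 0 to 1 with a library left out. For MetaICM against 3 days, the 1 lower became 0 at 0.01 and 0 to 2 with a library left out. Of the 234 recomputed counts 213 stayed within 1.5 times the main one. Of the 531 recomputed gene values, 490 kept direction and side of the threshold, 37 kept direction but lost the call and 4 changed sign. The latter were all KIF5B for MetaICM against control, with 0.00074 for library totals, 0.0034 for all genes with a count, 0.037 without control replicate 1 and 0.037 without MetaICM replicate 2, within a range of −0.077 to 0.037 over the libraries left out. Over all genes, 3 days against control gave 2067 lower and 1389 higher, and 1767 and 1785 with library totals. The cause of these differences was not tested.

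Replicate numbers showed at most a weak sign of pairing: the replicate differences of compared conditions correlated between −0.103 and 0.159 across 16584 genes, which are not independent. The highest value was that of 3 days against control. There the replicate block gave 2309 genes lower and 1606 higher, beside 2067 and 1389 without it. Such correlations cannot settle whether the libraries were paired. With the replicate number as a block, the only kinesin count that moved past 1.5 times the main one was that lower for MetaICM against control, from 1 to 2. With 2 libraries per condition, and a lone library taken to vary like the other condition when 1 is left out, small differences such as those between 6 and 3 days depend on single libraries. Genes under about 60 counts, such as KIF5A and KIF21B, carry the widest errors.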
